A study of Mus musculus with 2 samples.

Results

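The 10 genes described here encode transcription factors of the urothelium, the epithelium that lines the ureter and bladder: the grainyhead-like factors Grhl1, Grhl2 and Grhl3, the nuclear receptor Pparg, the zinc-finger factors Gata3 and Klf5, the forkhead factor Foxa1, the ETS factors Elf3 and Ehf, and the P53 relative Trp63. They were chosen by name, and all 15 array probes that carry one of these names were used, of 39429 probes on the array. The series measured total RNA of ureters dissected from mouse embryos of the NMRI strain at E14.5 on 2 two-colour Agilent arrays, each of which held a knockout and a control sample. The knockout samples carried Pax2-cre/+;Smad4(fl/fl) by the series title (the sample labels write Pax-cre/+;Smad4(fl/fl)) and are called Smad4cKO (UE), for the ureteric epithelium. The controls were Smad4(fl/?), in which the second allele is not specified, and their labels name no Cre. Replicate 1 was female with the knockout in Cy3 and the control in Cy5, and replicate 2 was male with the knockout in Cy5 and the control in Cy3, so sex and dye orientation cannot be told apart. The sources used here do not give the number of embryos in a sample, and p-values therefore rest only on differences between these arrays, which may be technical. In the test, the spread of each gene (1 residual degree of freedom) is combined with a spread pooled over all genes (prior of 9.21).

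The urothelium is built from basal, intermediate and superficial cells, and the superficial cells carry plaques of uroplakins on their surface. GRHL3, PPARG, GATA3, FOXA1, ELF3 and KLF5 are known as regulators of urothelial differentiation, while P63 marks the basal and intermediate cells. SMAD4 is the common partner of the SMAD proteins that carry BMP and TGF-beta signals to the nucleus, and the comparison shows how the transcripts of these factors stand in ureters labelled as lacking it in their epithelium.

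The letters in front of the genes whose transcripts passed the test, and those of a probe that read against the others of its gene, are shown first. Both stretches end at the base before an annotated start in RefSeq (GRCm38.p6), are given 5′ to 3′ on the gene's strand, and are shown because they hold CAGACA, a core letter string bound by SMAD proteins, or its reverse complement TGTCTG (capitals). The Grhl3 stretch lies on the minus strand at chr4:135573633-135573882 with the match at base 66, and the Pparg stretch, in front of 1 of 3 annotated starts, lies on the plus strand at chr6:115421816-115422065 with the match at base 48.
Grhl3: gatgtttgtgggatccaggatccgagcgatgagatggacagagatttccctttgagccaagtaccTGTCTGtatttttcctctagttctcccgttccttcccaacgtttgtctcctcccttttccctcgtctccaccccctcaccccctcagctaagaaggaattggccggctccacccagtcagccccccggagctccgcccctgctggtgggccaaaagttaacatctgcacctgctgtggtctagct
Pparg: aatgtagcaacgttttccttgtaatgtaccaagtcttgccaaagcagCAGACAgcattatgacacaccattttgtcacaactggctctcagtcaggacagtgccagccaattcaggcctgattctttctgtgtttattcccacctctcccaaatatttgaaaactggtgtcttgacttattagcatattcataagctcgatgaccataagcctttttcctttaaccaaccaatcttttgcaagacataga
Searched on both strands over the 250 bases before each start, CAGACA stood in 17.1% of 32851 mouse promoters, and among the 9 entries available for 6 of the factors it stood in these 2. AACCNGTT, the grainyhead motif, stood in 1.79% of all promoters and in 0 of the 9. TGTTTAC, a forkhead motif, stood in 3.17% of all promoters and in 1 of the 9, that of Foxa1 itself. AGGTCA, to which nuclear receptors bind, stood in 14.0% of all promoters and in 2 of the 9, both of Pparg. Each match is only a description of letters.

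The third sequence is the brightest Trp63 probe on the array, shown because it holds 6 CAG triplets in a row (capitals). It lies at mm9 chr16:25871159-25871218 on the plus strand.
Trp63 probe: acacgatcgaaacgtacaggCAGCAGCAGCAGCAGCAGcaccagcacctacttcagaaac

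All 10 factors were measured in every sample: each of the 15 probes had at least 3 spots well above background in every channel, on an array with 4 spots per probe. The share of all probes well above background was 69.1% for the knockout and 67.6% for the control of replicate 1, and 66.5% for the knockout and 68.6% for the control of replicate 2. The 6 markers of urothelium and the 8 of ureteric mesenchyme and smooth muscle were also all measured. For Smad4, the targeted gene, log2 knockout over control was -0.58 on replicate 1 and -0.081 on replicate 2. This mean of -0.33 ± 0.36 (SD, n = 2) was not called (limma adjusted p = 1.00). The samples are therefore called labelled knockout. Across all 20104 genes the log2 ratios of the 2 arrays correlated at Pearson 0.0168 and Spearman -0.082, a description across genes, which are not independent replicates. Signals below are normalised, in arbitrary units, and include an added offset of 50, which draws the ratios of dim probes towards 0.

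Grhl3 and Pparg were higher in labelled knockout ureters, and no factor was lower. In the two-sided limma test of each gene's ratios on the 2 arrays, with adjustment over all 20104 genes and a threshold of 0.05, 2 of the 10 factors were called higher, where the background was 0.229% of all genes, and 0 were called lower, where it was 0.0995%. At an unadjusted p under 0.05, 914 genes stood in the whole table. The log2 ratio was above 0 on both arrays for 7 factors, below 0 on both for 0, and of opposite sign for 3 (Elf3, Ehf and Trp63). The median of the 10 was 0.22 on replicate 1 and 0.36 on replicate 2, beside -0.0093 and -0.0034 over all genes, of which 21.7% were above 0 on both arrays. Below 0 on both arrays were 4948 of the 20104 genes. The factors were chosen with earlier results of these data known, so their counts and medians are descriptions. Groups that do not overlap are named below, and the share of all genes with such groups was not counted. In bulk ureter RNA, more cells of a type and more RNA per cell cannot be told apart.

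**Figure D1:**
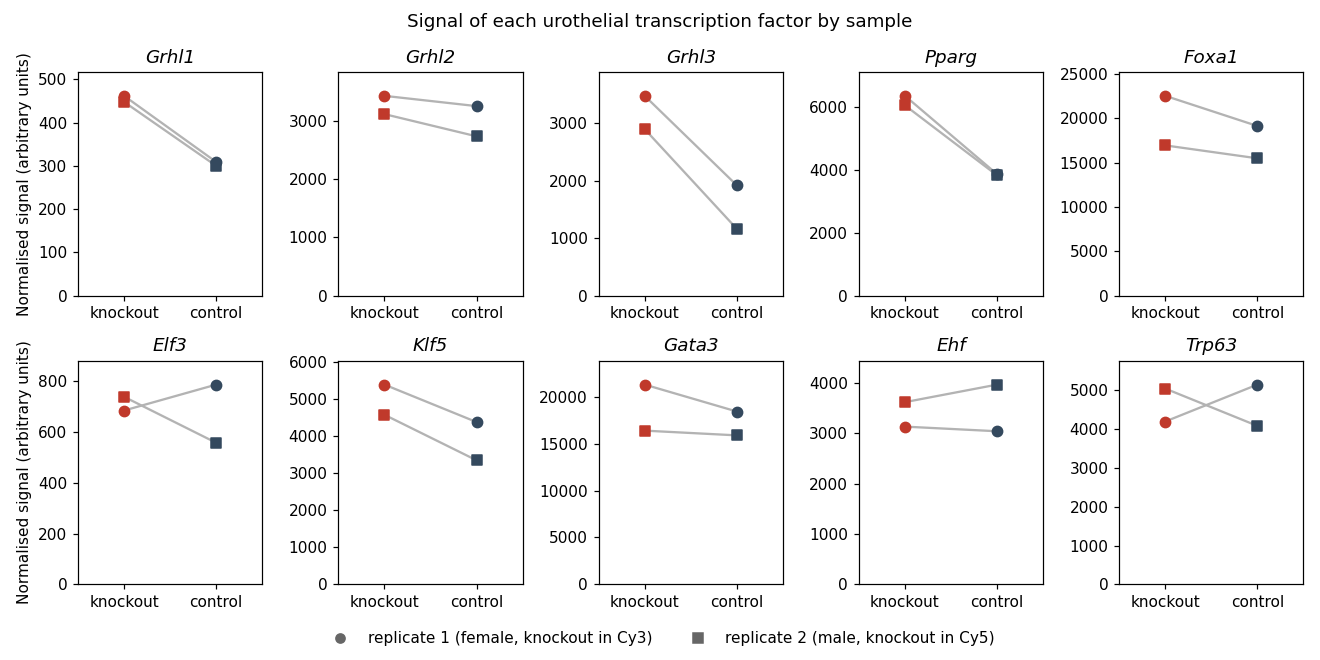
Normalised signal (arbitrary units, each panel with its own axis from 0) of the probe that stands for each factor, in the labelled knockout (left) and control (right), with a line joining the samples of an array. Grhl3, Pparg, Grhl1 and Klf5 have both knockout points above both control points, and the lines cross or diverge for Elf3, Ehf and Trp63. The share of all genes with groups so separated was not counted.

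Among the grainyhead-like factors, which in epithelia control junction and barrier genes, Grhl3 had the largest ratio of the 10. GRHL3 is known from the bladder as a factor needed for terminal differentiation of superficial cells. Its probe, at mm9 chr4:135097991-135098050 (minus strand), read 3474 and 2895 in labelled knockout ureters, against 1918 and 1161 in control ureters. Both knockout values lay above both control values, and the control values differed more between the arrays than the knockout values did. Knockout over control was 1.81-fold on replicate 1 and 2.49-fold on replicate 2, a mean log2 ratio of 1.09 ± 0.33 (SD, n = 2 arrays, 2.13-fold), which passed the test (limma adjusted p = 0.0101). Only 0.0746% of all genes had a mean as high, with Grhl3 at rank 15. The call was lost with median centring in place of loess, without the filter on dim probes and with the channels taken as unpaired samples, at nearly the same ratio.

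Grhl1, a relative best known from skin, where it controls desmosomal cadherins, had nearly equal ratios on both arrays. Its probe at mm9 chr12:25302095-25302154 read 462 and 448 in labelled knockout ureters, against 309 and 300 in control ureters. The groups did not overlap, and the log2 ratio was 0.58 on each array (mean 0.58 ± 0.000692, SD, n = 2, 1.5-fold). It did not pass over all genes (limma adjusted p = 0.131), although its unadjusted p was 0.000607, and it passed under 5 of 13 other ways of processing. Grhl1 stood at rank 98 from the highest mean.

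Grhl2, needed for the integrity of embryonic epithelia such as the neural tube and kidney duct, has 2 probes. The brighter one, at mm9 chr15:37293139-37293198, read 3426 and 3113 in labelled knockout ureters, against 3250 and 2732 in control ureters. These values overlapped, the knockout sample of replicate 2 lying below the control of replicate 1. The mean log2 ratio was 0.13 ± 0.0793 (SD, n = 2, limma adjusted p = 1.00), and a dim second probe at mm9 chr15:37239426-37239485 read 0.18 and 0.17 on the 2 arrays (0.42 from Agilent's processed signals, which carry no offset). Side by side, the 3 family members thus read 1.09 for Grhl3, 0.58 for Grhl1 and 0.13 for Grhl2, and the differences between them were not tested.

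Pparg encodes the lipid-activated nuclear receptor best known from fat cells, and in urothelium as a driver of superficial cell differentiation. Its probe at mm9 chr6:115440213-115440272 read 6354 and 6051 in labelled knockout ureters, against 3861 and 3825 in control ureters. The values within a group lay close together and the groups were far apart. The log2 ratio was 0.72 on replicate 1 and 0.66 on replicate 2, a mean of 0.69 ± 0.0403 (SD, n = 2, 1.61-fold), at the edge of the threshold (limma adjusted p = 0.04995). Tested with single probes in place of genes, over 26522 probes, Pparg read an adjusted p of 0.058 and no longer passed. Its call was lost under the same 3 settings as that of Grhl3.

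Klf5, a zinc-finger factor needed for bladder urothelium to form and mature, had an intermediate ratio. Its probe, whose mm9 coordinates (chr14:99702656-99712388) span more than its own length, read 5393 and 4579 in labelled knockout ureters, against 4382 and 3350 in control ureters. Both knockout values lay above both control values, the lower knockout value by a small margin. The log2 ratio was 0.30 on replicate 1 and 0.45 on replicate 2, a mean of 0.38 ± 0.11 (SD, n = 2, 1.30-fold), which did not pass over all genes (limma adjusted p = 0.639, unadjusted p 0.0112).

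Foxa1 and Gata3, which open chromatin for other factors in luminal epithelia, had groups that overlapped. Foxa1 (mm9 chr12:58641764-58641823, minus strand) read 22550 and 16957 in labelled knockout ureters, against 19145 and 15499 in control ureters. Gata3 (mm9 chr2:9779551-9779610, minus strand), a factor that the nephric duct and urothelium share with lymphocytes and sympathetic neurons, read 21298 and 16391 in labelled knockout ureters, against 18428 and 15886 in control ureters. Both genes were brighter in both samples of replicate 1, so the overlap came from the difference between arrays. Within arrays the log2 ratios of Foxa1 were 0.24 and 0.13 and those of Gata3 0.21 and 0.045, and neither passed (limma adjusted p = 1.00 for each).

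The ETS factors Elf3 and Ehf, which act in differentiating epithelia, had ratios of opposite sign on the 2 arrays. Elf3 (mm9 chr1:137150328-137150387, minus strand) read 684 and 738 in labelled knockout ureters, against 786 and 557 in control ureters. The control values enclosed the knockout values, with log2 ratios of -0.20 and 0.41 (mean 0.10 ± 0.43, SD, n = 2, limma adjusted p = 1.00). The brighter Ehf probe (mm9 chr2:103106827-103106886, minus strand) read 3131 and 3617 in labelled knockout ureters, against 3039 and 3965 in control ureters, with log2 ratios of 0.043 and -0.13. Its second probe (mm9 chr2:103114043-103114102) read 0.12 and -0.26, so both Ehf probes fell on the same side on each array.

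**Figure D2:**
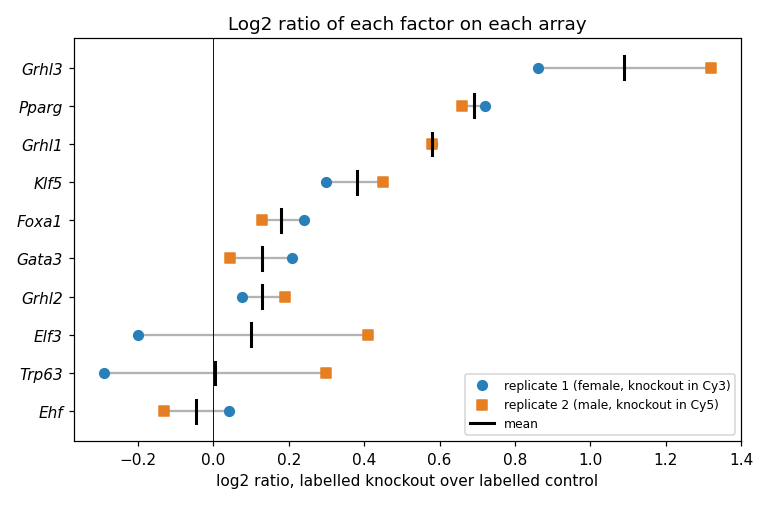
Log2 ratio of labelled knockout over control (x axis) for each factor on each array, with circles for replicate 1, squares for replicate 2 and a bar for the mean, sorted by the mean. Grhl3 stands farthest right with the arrays at 0.86 and 1.32, while Elf3, Trp63 and Ehf straddle 0.

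The 4 probes of Trp63, which encodes P63, the factor of basal and intermediate urothelial cells, differed among themselves. The brightest, named by the array design for transcript variant 3 and shown above, stands for the gene, and it read 4200 and 5049 in labelled knockout ureters, against 5152 and 4087 in control ureters. The control values enclosed the knockout values, with log2 ratios of -0.29 and 0.30 (mean 0.0051 ± 0.42, SD, n = 2, limma adjusted p = 1.00). On this probe the Cy5 channel was the higher one on both arrays, whichever sample it held.

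The other 3 Trp63 probes were above 0 on both arrays. The probe at mm9 chr16:25821344-25821403, named for a cloned cDNA, read 1038 and 1062 in labelled knockout ureters, against 555 and 556 in control ureters. Its log2 ratios of 0.90 and 0.93 gave a mean of 0.92 ± 0.0217 (SD, n = 2, 1.89-fold) and passed among single probes (limma adjusted p = 0.0149), where 0.17% of the 26522 probes were called higher. The probe at mm9 chr16:25892012-25892071, named for transcript variant 4, read 1608 and 1617 in labelled knockout ureters, against 962 and 740 in control ureters, with a mean log2 ratio of 0.93 ± 0.27 (SD, n = 2, 1.91-fold, limma adjusted p = 0.0245). For both probes the 2 knockout values were nearly equal and lay above both control values. A dim cDNA probe at mm9 chr16:25867718-25867777 read 179 and 182 in labelled knockout ureters, against 151 and 141 in control ureters, a mean log2 ratio of 0.31 ± 0.0832 (SD, n = 2) or 0.61 from the processed signals, and did not pass (limma adjusted p = 1.00). Which exons of Trp63 the probes fall in was not analysed here. As a gene, Trp63 read 0.54 as the mean over its probes (limma adjusted p = 0.107) and 0.93 by its brightest probe without a CAG run (limma adjusted p = 0.0176), a choice made after the values were seen.

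**Figure D3:**
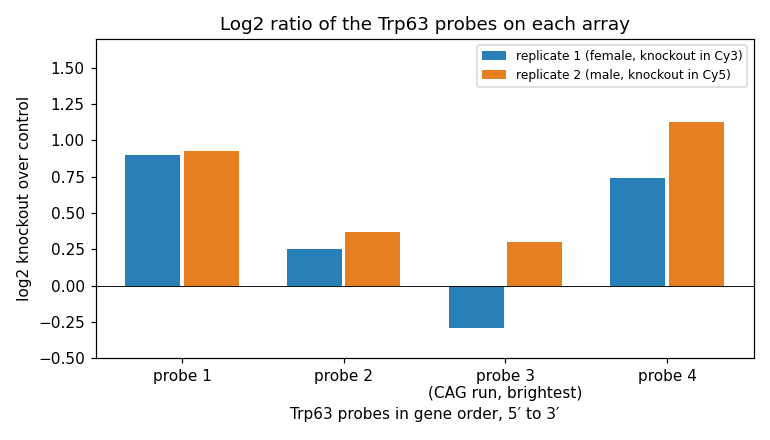
Log2 ratio of labelled knockout over control (y axis) on each array for the 4 Trp63 probes in gene order. Probe 3, the brightest and the only one with a CAG run, reads -0.29 and 0.30, and the other 3 are above 0 on both arrays.

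The CAG run was followed across the array, a search made after the Trp63 values were seen. All 6 probes with 5 or more CAG triplets in a row were measured (those of Arhgap17, BC051142, Crebbp, Git2, Pif1 and Trp63). On each of them the log2 ratio of knockout over control was below 0 on replicate 1 and above 0 on replicate 2. Their mean log2 ratio of Cy5 over Cy3 ran between 0.21 and 0.31, with Trp63 at 0.30, while the quartiles of the other 26516 probes were -0.085 and 0.083 and 6.97% of these were at or above 0.21. The same quantity was 0.30 for Elf3 and 0.23 for Grhl3. Whether the run gives the probes this reading was not tested.

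**Figure D4:**
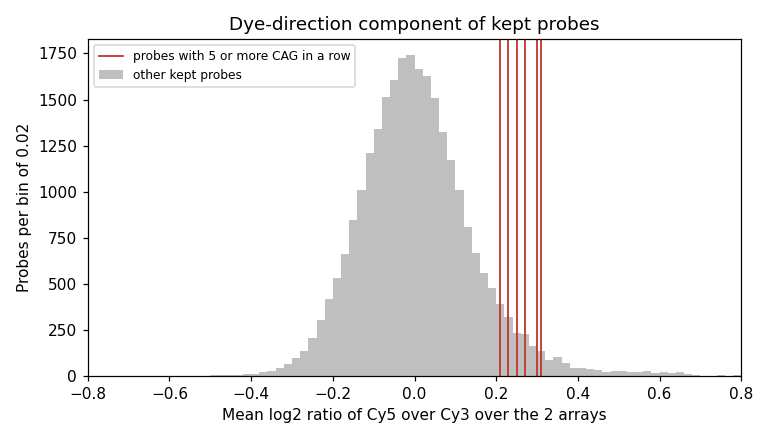
Number of measured probes (y axis, bins of 0.02) by their mean log2 ratio of Cy5 over Cy3 over both arrays (x axis), in grey, with red lines for the 6 probes with 5 or more CAG triplets in a row. The red lines lie between 0.21 and 0.31, to the right of most of the grey probes.

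Genes tied to the factors by background knowledge are given by their counts. Over all genes, 0.229% were called higher, 0.0995% were called lower and 21.7% were above 0 on both arrays. Of 19 measured targets of grainyhead-like factors (of 21), 0 passed, 16 were above 0 on both arrays and 1 below, with a median log2 ratio of 0.24. The largest mean was that of Lama3, a laminin chain of the basement membrane, at 0.61 (limma adjusted p = 0.122). It passed under 5 other settings, among them processed signals (0.73, limma adjusted p = 0.0282) and the prior with trend (limma adjusted p = 0.0265). Tmem54 read 0.36, and the tight junction gene Cldn3 read -0.37 (limma adjusted p = 0.636). Of the grainyhead-like targets, Cdh1, Cldn4, Rab25, Esrp1, Epcam, Prss8, St14, Spint1, Spint2 and Ap1m2 are also among the general epithelium markers below. Those markers had the same median of 0.24, so the lists are not separate readings. Of 17 targets of PPARG, 0 passed and 9 were above 0 on both arrays, with a median of 0.13. Among them Pdk4 averaged 0.33 and Klf4 -0.28.

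Of 18 targets of P63, 2 were called higher and 0 lower, and 11 were above 0 on both arrays, with a median of 0.21. Lama3 is on this list as well as on that of the grainyhead-like targets. Over all genes 0.229% were called higher and 21.7% were above 0 on both arrays, and the median of the general epithelium markers was 0.24. Perp, a desmosomal gene that P63 controls, read 12041 and 11219 in labelled knockout ureters, against 4952 and 4282 in control ureters, 2.52-fold higher (limma adjusted p = 0.00126). Sfn, which encodes the protein 14-3-3 sigma of stratified epithelia, read 696 and 639 in labelled knockout ureters, against 436 and 356 in control ureters, 1.69-fold higher (limma adjusted p = 0.0359). For both genes the groups did not overlap. No gene of the whole table was called with median centring or without the filter, and Sfn was not called with unpaired channels.

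Uroplakins and other surface urothelium genes, which lie downstream of the differentiation factors, were called higher in 6 of 12 measured cases (of 15 listed) and lower in 0, with all 12 above 0 on both arrays and a median log2 ratio of 0.83. Those 6 were Upk3a (2.94-fold), Upk1a (2.57-fold), Upk1b (2.47-fold), Rab27b (1.99-fold), Upk3bl (1.84-fold) and Upk3b (1.71-fold). Over all genes, 0.229% were called higher. As reported, Grhl3 lay inside the range of folds of the 6 called genes at 2.13, and Pparg below it at 1.61. The threshold itself limits the low end of that range. Over all 12 measured genes the mean log2 ratios ran from 0.27 to 1.55, and both Grhl3 (1.09) and Pparg (0.69) lay inside. Among the called genes the low end rests on Upk3b, whose log2 ratio of 0.77 was 1.57 from processed signals and 1.60 in the authors' deposited table. Upk3b and Upk3bl were not called with unpaired channels (limma adjusted p = 0.0825 and 0.0541).

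Markers of epithelium at large read above 0 as well, at lower ratios than Grhl3, Pparg and Grhl1. All 16 markers of general epithelium were above 0 on both arrays and 0 passed, with medians of 0.26 and 0.22 on the 2 arrays and summed signals of 264939 and 234322 in labelled knockout ureters, against 227902 and 214122 in control ureters. The highest, the keratin Krt19, averaged 0.53. Grhl3, Pparg and Grhl1 lay above all 16 markers, Klf5 had 2 markers above it, Foxa1, Gata3 and Grhl2 had 11, 12 and 12, Elf3 had 14, and Ehf and Trp63 had all 16. With the median of these markers taken off on each array, Grhl3 read 0.60 and 1.10, Pparg 0.46 and 0.44, Grhl1 0.32 and 0.36, Klf5 0.043 and 0.23, Foxa1 -0.021 and -0.087, Gata3 -0.048 and -0.17, and Grhl2 -0.18 and -0.029. Elf3 read -0.46 and 0.19, Ehf -0.21 and -0.35, and Trp63 -0.55 and 0.088. Trp63 is placed here by its probe with the CAG run. Its 2 probes that passed singly averaged 0.93 and 0.92, above the 0.53 of Krt19, and its dim probe averaged 0.31. The part of epithelial content in these ratios was not tested.

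Markers of other cells that use the same factors are given beside them. For Gata3, lymphocyte markers were measured in 2 of 6 cases (Cd2, Cd3g, Il7r and Rag1 were not well above background), with summed signals of 2186 and 2719 in labelled knockout ureters, against 2584 and 2455 in control ureters. All 8 sympathetic and chromaffin markers were measured, with summed signals of 13199 and 20099 in labelled knockout ureters, against 16305 and 13041 in control ureters, and the largest means were 0.37 for Isl1, 0.35 for Th and 0.19 for Chga. For Pparg, 1 of 6 adipocyte markers (Lipe) was measured, at 174 and 158 in labelled knockout ureters, against 189 and 183 in control ureters, and Adipoq, Cfd, Cidec, Lep and Plin1 were not well above background. For Foxa1, Elf3 and Klf5, 5 of 8 gut and liver markers were measured, of which the liver gene Afp was called higher (2.49-fold, limma adjusted p = 0.00447), a call lost with unpaired channels (limma adjusted p = 0.993). Afp read 4135 and 8667 in labelled knockout ureters, against 1376 and 4213 in control ureters. These groups overlapped, and both samples were brighter on replicate 2. Ttr read 0.70 and 0.68, just missing the threshold (limma adjusted p = 0.0502), and was called with processed signals (1.03, limma adjusted p = 0.00115), and Alb read -0.095 and 1.61. The gut factors Cdx1 and Cdx2 and the liver gene Apoa1 were not well above background. For Trp63, 8 of 8 markers of basal epithelium and skin were measured and 0 passed. Krt5, Krt14, Krt15 and Col17a1 among them are also P63 targets above, so these lists are not separate readings. Of these, 3 were above 0 on both arrays and 1 below, with medians of -0.051 and 0.1 on the 2 arrays and a lowest mean of -0.11. Ivl averaged 0.49 and was called at 0.88 with processed signals (limma adjusted p = 0.00476). Krt5 averaged 0.27 (-0.0022 and 0.54) and Krt15 0.23 (-0.12 and 0.58), each of opposite sign on the 2 arrays. The summed signals of the basal and skin markers were 5368 and 5799 in labelled knockout ureters, against 5344 and 5381 in control ureters. The part of these cells in the ratios was not tested.

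Genes with the ratios nearest to those of Grhl3 and Pparg were found by the distance of their log2 ratios over the 2 arrays, among genes of similar mean signal. Nearest to Grhl3, of 4514 genes, were the microRNA host gene Mir205hg (0.78 and 1.21, distance 0.131), the water channel gene Aqp3 (0.88 and 1.08, distance 0.243) and Upk3bl (0.79 and 0.97, distance 0.353). Nearest to Pparg, of 4505 genes, were the ceramide synthase gene Cers3 (0.76 and 0.67, distance 0.039), Apela (distance 0.209) and the protease gene Ctse (distance 0.216).

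In the authors' deposited table, which gives a signed fold per probe, Grhl3 stood at -1.92 and -2.71, Pparg at -1.72 and -1.58, and Grhl1 at -1.83 and -1.64. Its correlation with red over green of the scanner signals was 0.822 for replicate 1 and -0.739 for replicate 2. With the labelled dyes this makes it control over knockout on both arrays, which is the opposite order to the sample titles, so its negative folds are on the same side as the ratios here. The 2 Trp63 probes that passed stood at -2.06 and -2.05 and at -1.74 and -2.26 in the authors' deposited table, and the probe with the CAG run at 1.21 and -1.24. The directions here rest on the dyes in the labels.

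**Figure D5:**
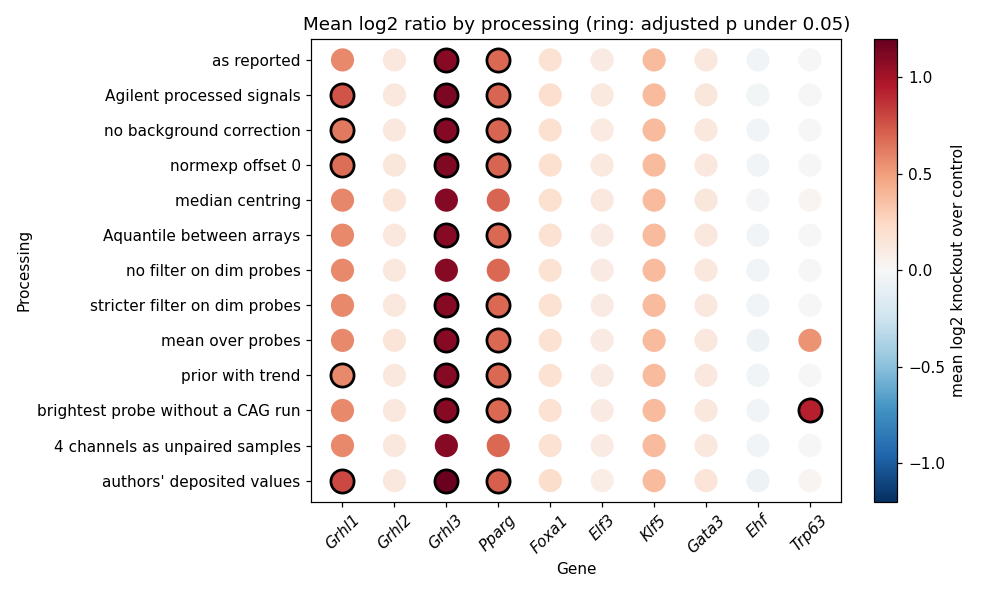
Mean log2 ratio of labelled knockout over control (colour) for each factor (x axis) under each way of processing (y axis), with a ring where the adjusted p was under 0.05. Grhl3 and Pparg have a ring as reported and lose it under median centring, no filter and unpaired channels, and Trp63 has a ring only where probes with a CAG run were left out.

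The ratios of 8 factors moved little with the processing, while those of Grhl1 and Trp63 moved more. Part of this was fixed in advance. Aquantile, the filters on dim probes, the prior with trend, unpaired channels and testing probes singly leave the ratio of a probe unchanged. For a factor with a single probe, the mean over probes and leaving out CAG-run probes do so too. Aquantile also repeated the reported adjusted p of Grhl3 and Pparg, so the counts out of 13 are not independent checks. Over the other ways of processing Grhl3 averaged between 1.09 and 1.19 and passed under 10 of 13. Pparg averaged between 0.69 and 0.72 and passed under 9 of 13. Klf5 read 0.38 throughout, Foxa1 between 0.18 and 0.21, Gata3 and Grhl2 between 0.13 and 0.15, Elf3 between 0.091 and 0.13 and Ehf between -0.065 and -0.023, and none of these 6 passed under any of them. Grhl1 averaged between 0.58 and 0.79 and passed under 5 of 13, and Trp63 between 0.0033 and 0.93, passing under 1 of 13, that without CAG-run probes.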

How the data were processed

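Per the file headers, the intensity of each spot (mean signal and median local background of both channels) came from Agilent Feature Extraction 10.7.3.1. Processed intensity in the deposited files was background-subtracted and dye-normalised by the scanner software, per the file headers. For each probe the authors' deposited table holds a signed fold, treated as a score because its scaling, centring and floor are not given. It entered only as an alternative.

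From the mean signals, limma 3.58.1 (R 4.3.3) was run with normexp at an offset of 50 and loess within arrays, with control spots at weight 0. Outlier spots (3.52% and 3.66%) were left out, and 0 probe spots were saturated. Each probe was the average of its 4 spots, with a median spot SD (log2) of 0.0567 and 0.0587 on the 2 arrays. The ratio of replicate 1 was given the opposite sign, so that both arrays read knockout over control. Probes were kept where, in 1 genotype or both, 2 or more spots stood well above background on each array (26522 of 39429), and a gene was its brightest probe (20104 genes). The log2 ratios were tested against 0 (1 residual degree of freedom, prior of 9.21, Benjamini-Hochberg over all genes). Signals per sample were taken per channel after loess and Aquantile. The number of arrays limits the precision.

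Names of probes were brought up to date from RefSeq (GRCm38.p6), for 28328 by accession, 3400 by symbol and 243 by older symbol, and 7458 by none, which stayed as named in the file. Coordinates are the array design's, on mm9.

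The 10 factors and the lists were chosen with earlier results of these data known. Named were all 10 factors with every probe, Smad4, the 3 genes nearest to Grhl3 and to Pparg, and from each list the members that passed or else the 3 with the largest absolute mean. Some list members are not reported here. The steps were tested on simulated data. Alternatives were processed signals, no background correction, offset 0, median centring, Aquantile, no filter or a stricter one, the mean over probes, a prior with trend, unpaired channels, the authors' deposited values and each array alone. Testing probes singly and leaving out probes with a CAG run were chosen after seeing the data. Plots were drawn with matplotlib 3.10.9.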

Additional observations from a re-analysis of the deposited data

Results flagged for a closer look

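For 3 of the 10 factors the 2 arrays moved to opposite sides of 0. The log2 ratio of knockout over control on replicate 2 (male) minus that on replicate 1 (female) was 0.61 for Elf3, -0.18 for Ehf and 0.60 for the Trp63 probe that stands for the gene. These differences were not tested, with 1 array per sex, and sex and dye orientation cannot be told apart. Of the 3, Elf3 and Trp63 were higher in the Cy5 channel on both arrays, and Ehf in the Cy3 channel.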

How the results depend on the processing

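As reported, 66 genes and 2 of the 10 factors were called. The genes called numbered 194 with processed signals, 115 without background correction, 131 at offset 0, 156 with a prior with trend and 191 with the authors' deposited values. They numbered 26 with channels as unpaired samples, and 0 with median centring and 0 without the filter, where 347 and 1097 genes had an unadjusted p under 0.05 in limma. The factors called numbered 3 with processed signals, without background correction, at offset 0, with a prior with trend, with the authors' values and without CAG-run probes, and 0 with median centring, no filter and unpaired channels. Grhl3 lost its call at 1.10 with median centring (limma adjusted p = 1.00), 1.09 without the filter (0.717) and 1.09 with unpaired channels (0.218). Pparg lost its call at 0.70 (1.00), 0.69 (0.601) and 0.69 (0.0666) under the same settings and at 0.69 among single probes (0.058). Grhl1 passed at 0.75 with processed signals (0.0187), 0.63 without background correction (0.0328), 0.67 at offset 0 (0.0266), 0.58 with a trend (0.0188) and 0.79 with the authors' values (0.0131). Trp63 passed at 0.93 without CAG-run probes (0.0176). No called value changed sign under these settings, several of which leave the ratio of a probe unchanged. The causes of these changes were not tested. With each array alone there is no test, and the ratios are those given per array. The signal over background limits the dim probes of Grhl1, Grhl2 and Trp63, whose ratios were larger without the offset.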

Other observations

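Partners and relatives of the factors mostly read near or below 0. Over all 20104 genes, 21.7% were above 0 on both arrays, and 4948 genes were below 0 on both. Of 16 nuclear receptors and cofactors related to PPARG, 0 passed, 0 were above 0 on both arrays and 9 were below 0 on both, with a median log2 ratio of -0.16. The retinoic acid receptor genes Rara and Rarg averaged -0.25 and -0.22. Of 19 measured genes of the same factor families (of 21), 1 was called higher and 0 lower, beside 0.229% and 0.0995% of all genes. Of the 19, 7 were below 0 on both arrays, with a median of -0.039. The gene called was Elf5, an ETS factor of glandular epithelia close to Elf3 and Ehf, at 740 and 747 in labelled knockout ureters, against 464 and 414 in control ureters (1.7-fold, limma adjusted p = 0.0359). Foxa2, a relative of Foxa1, averaged -0.43 and was not called (limma adjusted p = 0.414). It read -1.22 and was called lower with processed signals (limma adjusted p = 0.000358) and with the authors' deposited values (limma adjusted p = 0.000263), and was called at offset 0 (-0.72, limma adjusted p = 0.0155) and with a prior with trend (limma adjusted p = 0.00737). Tfcp2l1 averaged -0.40.

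Of 29 other epithelial transcription factors and cofactors, 2 were called higher and 1 lower, beside 0.229% and 0.0995% of all genes. Their median log2 ratio was 0.057. Msx2, a homeobox gene known to respond to BMP, was 1.95-fold higher in labelled knockout ureters (limma adjusted p = 0.0359), and Foxi1, a factor of intercalated cells, was 1.76-fold higher (limma adjusted p = 0.0211). Cited4, which encodes a coactivator, read 455 and 511 in labelled knockout ureters, against 1289 and 1442 in control ureters, and was 2.83-fold lower (limma adjusted p = 0.000882). With unpaired channels Msx2 (limma adjusted p = 0.146), Foxi1 (0.0642), Elf5 (0.059) and the water channel gene Aqp3 (0.059) lost their calls.

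Markers of the remaining cell types of the ureter and kidney were read beside these. Of 8 collecting duct markers, 2 were called higher (Aqp3, 1.97-fold, and Foxi1), beside 0.229% of all genes. Their summed signals were 6916 and 6506 in labelled knockout ureters for the 8 markers, against 5429 and 5177 in control ureters. Of 8 markers of ureteric mesenchyme and smooth muscle, 0 passed, 3 were above 0 on both arrays and 4 below, with a median log2 ratio of -0.047. Their signals summed to 106697 and 103316 in labelled knockout ureters, against 124469 and 107842 in control ureters. There the forkhead gene Foxf1 averaged -0.70 (limma adjusted p = 0.163; called lower under 4 other settings, with limma adjusted p between 0.0108 and 0.048), Myocd -0.44 and Bmp4 -0.29. None of the 6 fibroblast, 5 mesothelium, 6 endothelium and 6 macrophage markers passed, with medians of -0.17, -0.029, -0.034 and 0.11. The largest means there were -0.48 for Col1a1, 0.41 for Msln, -0.37 for Flt1 and 0.39 for Lyz2.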
